A study of Rattus norvegicus with 12 samples.

Results

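Rat cardiac progenitor cells were profiled by RNA sequencing while in suspension and after plating, and 34 genes of the G2 phase and mitosis are described here out of 16924 genes in each count file. The members were chosen by name: 38 rat symbols were looked up by Entrez identifier, and a member needed a row in the files and at least 10 counts summed over the 12 libraries. All 34 members with a row met this, and all 34 were among the 10020 genes tested. Bub1b, Birc5, Cenpe and Anln were not analysed here.

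The 4 groups had 3 libraries each: a suspension group and 3 attached groups, plated on fibronectin, on laminin or on an uncoated dish. All groups used the same rat line, which derives from 1 clone and was grown with serum, leukemia inhibitory factor, basic fibroblast growth factor, erythropoietin and glutathione. The labels give no genetic change and no age. Per the labels' protocols, plated cells were seeded sparsely and kept for 2 h in 0.1% fetal bovine serum. The labels attach this text to the suspension libraries too and do not say how those cells were held, so time and serum may differ along with attachment. Each replicate number is a batch in the labels (1, 2 or 3, shared by the 4 groups), and the file headers give each batch a date of its own. Since the line is a single clone, p-values say nothing of differences among animals. In fits without a batch term they measure the spread of the line from batch to batch within a group, and libraries of the same batch are taken as independent. Where the batch is in the fit, they measure the spread left after shifts shared by a batch are removed.

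Entry into mitosis is driven by Cdk1 bound to cyclin A or cyclin B. The kinase is switched on by Cdc25 phosphatases, and the anaphase-promoting complex with Cdc20 later ends mitosis by marking cyclin B and securin for destruction. Aurora kinases, Bub1 and Ttk watch over the attachment of chromosomes at kinetochores, kinesins and Tpx2 build the spindle, and Prc1, Ect2 and Racgap1 direct the cleavage of the cell. Many of these genes are transcribed mainly in G2 and mitosis, through the MuvB complex with Mybl2 and Foxm1, so their summed level is widely read as a mark of proliferation.

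Levels are given as CPM (counts scaled to a fixed library size), set against a library's total count. All members were detected in every library, from 21.9 CPM for Hmmr on uncoated dish 3 to 957 CPM for Mki67 in suspension 1. Together the 34 members held 0.880 to 0.922% of the counts in the suspension libraries, 0.693 to 0.731% in attached libraries of batches 1 and 2, and 0.533 to 0.613% in attached libraries of batch 3. These 3 ranges did not overlap. In bulk libraries, fewer cells in G2 or mitosis and less RNA per such cell cannot be told apart.

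Total counts ran from 15875160 to 20852160 per library. The attached libraries of batch 3 stood apart from the other 6 attached libraries, so results are given with and without batch 3. Ribosomal RNA genes took 1.25 to 2.55% of counts in attached batch 3 and 0.448 to 4.24% in attached batches 1 and 2, and 11412 to 11539 against 11449 to 11574 genes had a count. Of 5 mesenchymal markers, Col1a1, Col1a2, Vim and Pdgfra were abundant, while Thy1 was too low to be tested. Of the progenitor markers, Gata4 and Kit were detected while Isl1 and Tbx20 had 0 counts in all 12 libraries. The 7 cardiomyocyte markers summed to 2.00 to 2.78 CPM in suspension and 4.49 to 6.75 CPM in attached libraries, with Myh7 and Nkx2-5 at 0. The 5 blood cell markers summed to 35.8 to 38.4 CPM in suspension and 50.7 to 65.3 CPM in attached libraries, nearly all of it Cd14, with 3 counts of Ptprc in all libraries. The 4 endothelial markers with a row summed to 1.16 to 1.39 CPM in suspension and 1.67 to 2.40 CPM in attached libraries, and the 3 smooth muscle markers to 164 to 224 CPM in suspension and 180.2 to 227 CPM in attached libraries. The cardiomyocyte, blood and endothelial sums moved with plating, and their part in the results was not tested.

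Plated cells were compared with cells in suspension to ask whether attachment for 2 h came with another level of mitotic transcripts. Lower levels were found for a subset of the genes, while cyclin B, Cdk1 and several other core genes stayed near their suspension level. Among members called with all libraries, the kinetochore protein Cenpf, DNA topoisomerase Top2a and the proliferation marker Mki67 had the largest changes. Ube2c and Cdc25b had smaller changes and the smallest adjusted p. Against suspension, the mean of the 3 attached groups was lower for 7 of 34 members and higher for 0 (edgeR quasi-likelihood, Benjamini-Hochberg adjusted p under 0.05). That was 20.6% of the members, where 10.4% of all genes tested were called lower. Of all genes, 15.9% were called higher. With the batch as a block, 18 of 34 were lower (24.8% of all genes) and 0 higher (25.2% of all genes). Without batch 3 also 18 were lower (12.8% of all genes) and 0 higher (10.6% of all genes). The 7 members called in the fit to all libraries were called in each of these fits as well. The median log2 fold change of the members was -0.25 and -0.22 without batch 3, where over all genes it was -0.00321 and -0.00585. For 17 of 34 members, all 9 attached libraries lay below all 3 suspension libraries, as they did for 16.7% of all genes tested. The count of 7 became 1 without suspension 1 or 3, 2 without suspension 2 and 4 without fibronectin 3. With library size in place of TMM scaling, 9 members were lower, and the split over all genes moved from 1042 lower and 1595 higher to 1173 lower and 1111 higher.

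By single surface, 1 member was lower on fibronectin (Cdc25b), 3 on laminin (Cdc25b, Ube2c and Aurka) and 0 on uncoated dishes, where 11 had an unadjusted p under 0.05. No member was higher on any surface. All genes were called lower at 3.06%, 6.96% and 4.1% and higher at 6.61%, 12.1% and 8.48%. With the batch as a block the members called lower numbered 9, 19 and 16, with 0 higher. In that fit all genes were lower at 12.1%, 20.8% and 18.7% and higher at 16.6%, 22.4% and 20.1%. Without batch 3 the members called lower numbered 14, 16 and 14, again with 0 higher, where all genes were lower at 4.95%, 10.3% and 6.81% and higher at 4.3%, 8.55% and 5.17%. The share of members was thus near the background with all libraries on fibronectin and laminin, and above it with the block and without batch 3. DESeq2 called 4, 6 and 5, and its share over all genes is not given. The 3 comparisons share the suspension libraries, so they are not independent of each other. The call of Cdc25b on fibronectin ended without any 1 of the 6 libraries compared, and the 3 on laminin numbered 1 without suspension 1, laminin 1 or laminin 2 and 0 without suspension 2 or 3. On uncoated dishes 2 were called without uncoated dish 3.

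Promoters of G2/M genes are known to share short elements, and several members moved together, so RefSeq windows of the rat GRCr8 assembly were searched, from 250 bases before to 50 bases after a gene's start. Of the 34 members 29 had a window. The cell cycle homology region (CHR), bound by MuvB, was searched as TTTGAA or TTTAAA, and the NF-Y box as CCAAT, on both strands, where TTTGAA and the reverse of CCAAT can share 1 base. A CHR form was found in 26 of 29 members and in 29.6% of all 27457 genes with a window. CCAAT was found in 23 of 29, against 39.6%, and both elements in 20 of 29, against 12.1%. A match describes these letters and shows no binding, and a window without one shows nothing about a factor.

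The 120 bases before the start are shown for 3 members that were lower without batch 3 and 3 that were not, 5′ to 3′ on the strand of the gene, to set both kinds of member side by side. Capitals mark the letters of these elements on either strand. Top2a lies at chr10:84473094-84473213 (minus strand), Mki67 at chr1:199952594-199952713 (minus strand), Kif23 at chr8:71320585-71320704 (minus strand), Cdk1 at chr20:19265173-19265292 (plus strand), Ccnb2 at chr8:79981659-79981778 (minus strand) and Cdc20 at chr5:137255800-137255919 (minus strand), all in GRCr8. The first 3 are the lower members.
Top2a: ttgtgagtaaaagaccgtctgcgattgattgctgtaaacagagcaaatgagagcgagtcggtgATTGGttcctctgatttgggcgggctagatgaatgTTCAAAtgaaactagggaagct
Mki67: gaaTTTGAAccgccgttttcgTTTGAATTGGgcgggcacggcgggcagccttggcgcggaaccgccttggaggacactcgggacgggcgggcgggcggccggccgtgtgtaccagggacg
Kif23: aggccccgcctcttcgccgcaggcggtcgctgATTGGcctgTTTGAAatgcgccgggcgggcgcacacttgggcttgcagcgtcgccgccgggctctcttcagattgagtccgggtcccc
Cdk1: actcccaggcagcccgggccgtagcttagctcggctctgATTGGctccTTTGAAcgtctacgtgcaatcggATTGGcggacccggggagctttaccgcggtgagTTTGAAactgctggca
Ccnb2: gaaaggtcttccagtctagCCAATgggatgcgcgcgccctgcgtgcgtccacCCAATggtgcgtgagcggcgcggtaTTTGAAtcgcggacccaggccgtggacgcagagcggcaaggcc
Cdc20: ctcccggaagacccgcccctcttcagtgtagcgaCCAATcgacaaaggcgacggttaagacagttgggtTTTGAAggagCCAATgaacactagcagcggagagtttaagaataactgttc
Each of the 6 stretches held a TTTGAA and a CCAAT on 1 strand or the other. In Mki67 the run TTTGAATTGG joins TTTGAA with the reverse of CCAAT, sharing a base. The 6 genes were chosen for display after their values were seen.

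**Figure D1:**
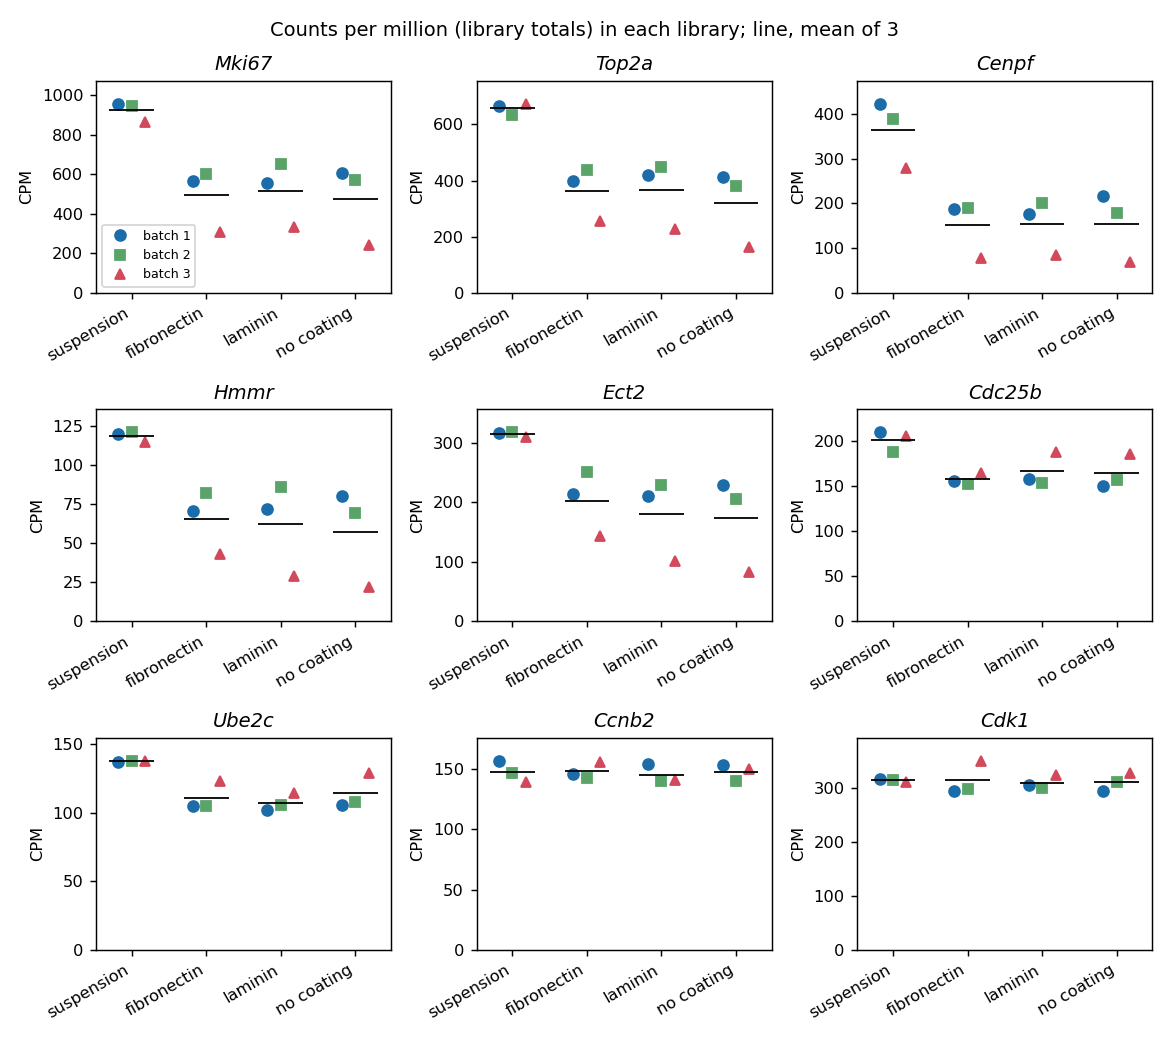
CPM from library totals (y axes, starting at 0) for 9 members in each of the 12 libraries, by group (x axes), with symbols for batch and a line at the mean of 3. For Mki67, Top2a, Cenpf, Hmmr and Ect2 the attached libraries of batch 3 (triangles) lie below those of batches 1 and 2, which lie below suspension. For Ccnb2 and Cdk1 the groups overlap.

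Mki67 and Top2a were the members of chromosome structure and proliferation. Mki67 (Entrez 291234), which coats mitotic chromosomes and is the common marker of cycling cells, stood at 957, 948 and 866 CPM in suspension 1, 2 and 3, 568, 601 and 309 CPM on fibronectin, 555, 652 and 335 CPM on laminin and 607, 569.6 and 241 CPM on uncoated dishes. All 9 attached libraries lay below all 3 suspension libraries, and the third library of each surface was the lowest of its group. The attached mean was lower by a log2 fold change of -0.88 ± 0.29 (edgeR, Benjamini-Hochberg adjusted p = 0.0435), and -0.66 ± 0.07 without batch 3 (edgeR, adjusted p = 0.000371).

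Top2a (360243), the topoisomerase that untangles sister chromosomes, was measured at 665, 634 and 673 CPM in suspension 1, 2 and 3, 397, 438 and 257 CPM on fibronectin, 421, 448 and 226 CPM on laminin and 414, 379 and 165 CPM on uncoated dishes. Again all attached libraries lay below all suspension libraries, with uncoated dish 3 lowest, while the 3 attached groups overlapped each other. Its log2 fold change was -0.89 ± 0.27 (edgeR, adjusted p = 0.0359) and -0.61 ± 0.06 without batch 3 (edgeR, adjusted p = 0.000339). The calls from all libraries ended without any 1 suspension library for both genes. That of Top2a ended also without fibronectin 3, and that of Mki67 without fibronectin 1 or 3 or laminin 1 or 3 (edgeR, adjusted p up to 0.133).

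Of 5 kinetochore members, Cenpf was lower with all libraries (10.4% of all genes). Cenpf, Ndc80 and Spc25 were lower with the block (24.8% of all genes) and without batch 3 (12.8%). Cenpf (257649), a large protein that joins the outer kinetochore in G2, gave 423, 388 and 279.9 CPM in suspension 1, 2 and 3, 188, 190.0 and 77.8 CPM on fibronectin, 176, 201 and 84.2 CPM on laminin and 216, 178 and 68.4 CPM on uncoated dishes. It had the largest change of all members, at -1.22 ± 0.36 (edgeR, adjusted p = 0.0305) and -1.05 ± 0.08 without batch 3 (edgeR, adjusted p = 9.55e-05). Suspension 3 was itself the lowest of the suspension libraries, still above all attached ones. The call from all libraries ended without any 1 suspension library (edgeR, adjusted p up to 0.107).

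Ndc80 (301701) and Spc25 (295661) belong to the complex that grips microtubules. Ndc80 was at 93.4, 89.6 and 88.1 CPM in suspension 1, 2 and 3, 62.8, 70.7 and 48.5 CPM on fibronectin, 68.8, 71.8 and 35.2 CPM on laminin and 74.2, 60.3 and 29.8 CPM on uncoated dishes. Spc25 was at 78.0, 80.4 and 82.6 CPM in suspension 1, 2 and 3, 59.5, 71.5 and 56.1 CPM on fibronectin, 64.0, 69.3 and 43.7 CPM on laminin and 56.8, 62.5 and 41.9 CPM on uncoated dishes. In both, no attached library reached the suspension range, and attached batch 3 was lowest on each surface. Their log2 fold changes were -0.62 ± 0.26 and -0.44 ± 0.15 (edgeR, adjusted p = 0.103 and 0.0557), passing with the block (edgeR, adjusted p = 0.00898 and 0.00604). Nuf2, their partner in that complex, was at 86.0, 75.0 and 78.6 CPM in suspension 1, 2 and 3, 71.7, 77.4 and 61.4 CPM on fibronectin, 82.0, 76.5 and 44.4 CPM on laminin and 76.1, 73.1 and 45.1 CPM on uncoated dishes. Here suspension overlapped batches 1 and 2, and the change did not pass at -0.22 ± 0.20 (edgeR, adjusted p = 0.426; 0.122 with the block). Knstrn, a spindle and kinetochore adaptor, was at 119, 103 and 111 CPM in suspension 1, 2 and 3, 99.5, 102 and 110.3 CPM on fibronectin, 102, 95.6 and 96.9 CPM on laminin and 99.5, 97.6 and 106 CPM on uncoated dishes, overlapping suspension, and did not pass either, at -0.11 ± 0.05 (edgeR, adjusted p = 0.137).

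Among the spindle checkpoint and mitotic kinases, Bub1 (296137), a checkpoint kinase at kinetochores, was at 306, 326 and 317 CPM in suspension 1, 2 and 3, 194, 236 and 128 CPM on fibronectin, 199, 253 and 102 CPM on laminin and 209, 204 and 67.7 CPM on uncoated dishes. Attached libraries were below suspension throughout, with attached batch 3 lowest. The change of -0.82 ± 0.33 did not pass (edgeR, adjusted p = 0.0893). It passed with the block at -0.96 ± 0.22 (edgeR, adjusted p = 0.00621) and without batch 3 at -0.52 ± 0.10 (edgeR, adjusted p = 0.00642). Ttk (315852), the kinase that starts the checkpoint, was at 154, 157 and 149 CPM in suspension 1, 2 and 3, 105, 126 and 65.9 CPM on fibronectin, 110.2, 134 and 53.9 CPM on laminin and 114, 108 and 35.0 CPM on uncoated dishes. Again all attached libraries lay below suspension. Its change was -0.67 ± 0.34 (edgeR, adjusted p = 0.161), and -0.39 ± 0.09 without batch 3 (edgeR, adjusted p = 0.0142).

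Aurka (261730), the centrosomal Aurora kinase, moved less and more evenly, at 158, 159 and 163 CPM in suspension 1, 2 and 3, 127, 126 and 143 CPM on fibronectin, 126, 125 and 147 CPM on laminin and 134, 142 and 159.6 CPM on uncoated dishes. Here uncoated dish 3 overlapped the suspension range, and batch 3 was the highest of each attached group. The change was -0.21 ± 0.06 (edgeR, adjusted p = 0.0294), a call that ended without any 1 suspension library (edgeR, adjusted p up to 0.118). Nek2, a centrosomal kinase, was at -0.04 ± 0.06 and did not pass (edgeR, adjusted p = 0.593). Of the chromosomal passenger complex, which corrects wrong attachments, Aurkb was at 152, 139.6 and 145 CPM in suspension 1, 2 and 3, 129, 131 and 148 CPM on fibronectin, 136, 142 and 157 CPM on laminin and 132, 132 and 147 CPM on uncoated dishes. Its partner Cdca8, borealin, was at 91.4, 89.6 and 89.3 CPM in suspension 1, 2 and 3, 78.0, 76.5 and 88.9 CPM on fibronectin, 74.6, 76.1 and 90.4 CPM on laminin and 75.7, 81.2 and 94.9 CPM on uncoated dishes. Both overlapped the suspension range, through batch 3 in Cdca8. Aurkb and Cdca8 did not pass with all libraries, at -0.04 ± 0.06 and -0.12 ± 0.07 (edgeR, adjusted p = 0.577 and 0.226). Cdca8 was lower without batch 3, at -0.20 ± 0.06 (edgeR, adjusted p = 0.0375).

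**Figure D2:**
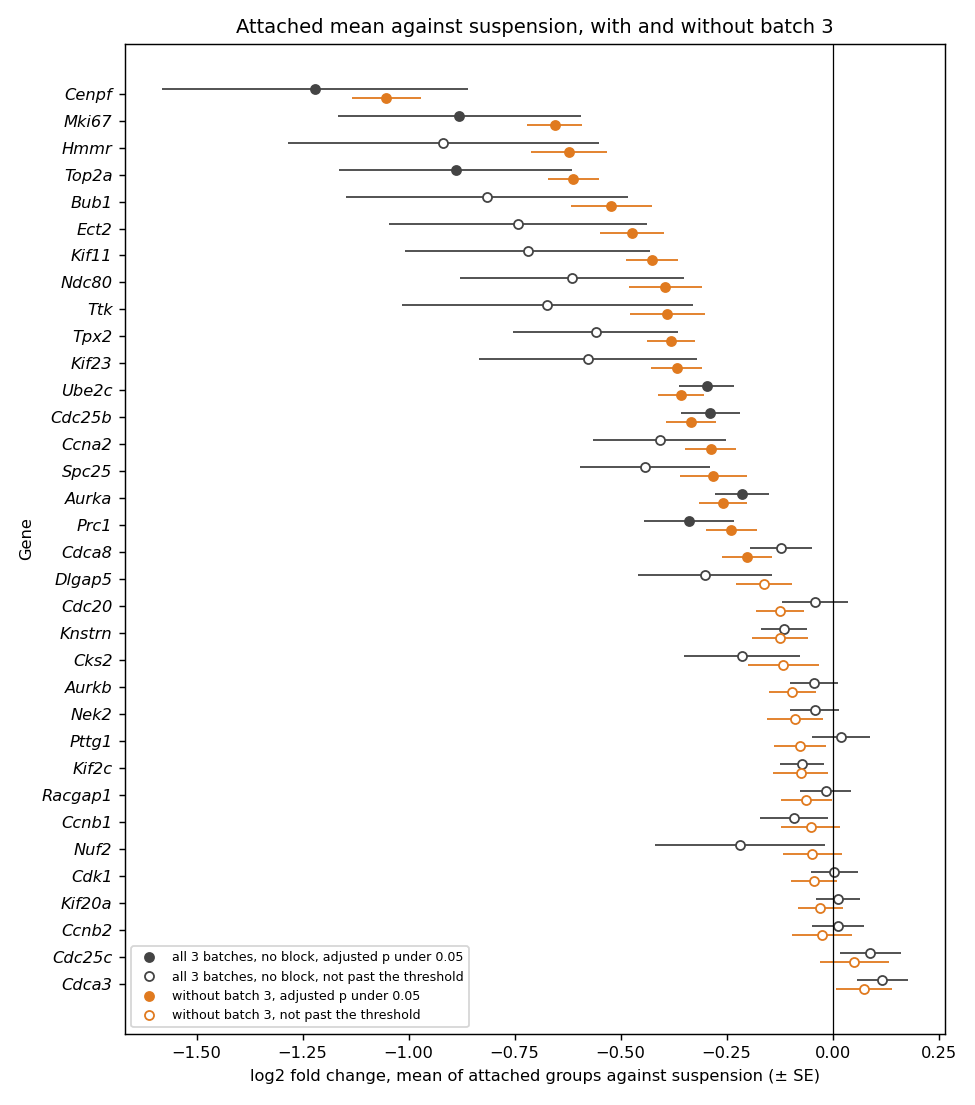
Log2 fold change of the attached mean against suspension with its SE (x axis) for each of the 34 members (y axis), from all 3 batches (dark grey) and without batch 3 (orange). Filled points passed an adjusted p of 0.05: the 18 genes from Cenpf down to Cdca8 without batch 3, and 7 of these with it, where the SEs of most are wider.

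Of the 5 members for spindle motors and spindle assembly, 0 passed with all libraries, 4 with the block and 3 without batch 3. All genes were lower at 10.4%, 24.8% and 12.8% in these fits. Tpx2 (311546), which targets Aurka to the spindle, was at 524, 519 and 511 CPM in suspension 1, 2 and 3, 387, 415 and 309.9 CPM on fibronectin, 391, 388 and 226 CPM on laminin and 400.3, 371 and 229 CPM on uncoated dishes. Its log2 fold change was -0.56 ± 0.20 (edgeR, adjusted p = 0.0562), and -0.61 ± 0.12 with the block (edgeR, adjusted p = 0.0034). Hmmr (25460), a spindle-associated hyaluronan receptor, was at 119.5, 121 and 114 CPM in suspension 1, 2 and 3, 70.2, 82.0 and 43.2 CPM on fibronectin, 71.7, 86.0 and 29.2 CPM on laminin and 80.1, 69.1 and 21.9 CPM on uncoated dishes. The lowest attached library was uncoated dish 3, and no attached library reached the suspension values. Its change was -0.92 ± 0.37 (edgeR, adjusted p = 0.0849), -1.09 ± 0.24 with the block (edgeR, adjusted p = 0.00513).

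Kif11 (171304), the kinesin that pushes spindle poles apart, was at 301, 293 and 313 CPM in suspension 1, 2 and 3, 205, 235 and 140.0 CPM on fibronectin, 215, 226 and 103 CPM on laminin and 211, 206 and 85.0 CPM on uncoated dishes. Its change was -0.72 ± 0.29 (edgeR, adjusted p = 0.086) and -0.43 ± 0.06 without batch 3 (edgeR, adjusted p = 0.00221). Dlgap5 (289997), a spindle microtubule stabiliser, was at 291, 283 and 282 CPM in suspension 1, 2 and 3, 247, 255 and 213 CPM on fibronectin, 253, 241 and 157 CPM on laminin and 270.2, 240.2 and 177 CPM on uncoated dishes and passed only with the block among these 3 fits, at -0.33 ± 0.10 (edgeR, adjusted p = 0.0227). Attached batch 3 lay below the other attached libraries in both genes. Kif2c, a kinesin that takes microtubules apart, did not pass in any of the 3 fits and was at -0.07 ± 0.05 (edgeR, adjusted p = 0.31).

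The central spindle and cytokinesis members divided. Kif23 (315740), the kinesin of the centralspindlin complex, was at 742, 717 and 686 CPM in suspension 1, 2 and 3, 544, 582 and 384 CPM on fibronectin, 553, 546 and 289 CPM on laminin and 579, 518 and 249 CPM on uncoated dishes. Its attached libraries all lay below suspension. The change was -0.58 ± 0.26 (edgeR, adjusted p = 0.114), -0.66 ± 0.15 with the block (edgeR, adjusted p = 0.00647). Ect2 (361921), which activates RhoA at the cleavage site, was at 316, 318 and 311 CPM in suspension 1, 2 and 3, 215, 252 and 143 CPM on fibronectin, 211, 230.1 and 101 CPM on laminin and 229.9, 206 and 83.3 CPM on uncoated dishes. It was lower with the block, at -0.87 ± 0.19 (edgeR, adjusted p = 0.0057), and without it at -0.74 ± 0.30 did not pass (edgeR, adjusted p = 0.0917).

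Prc1 (308761), the bundler of central spindle microtubules, was at 505, 531 and 519.7 CPM in suspension 1, 2 and 3, 412, 451 and 388 CPM on fibronectin, 435, 429 and 334 CPM on laminin and 432, 421 and 337 CPM on uncoated dishes. It fell by 0.34 ± 0.11 on the log2 scale (edgeR, adjusted p = 0.0391), a call that ended without any 1 suspension library, fibronectin 1 or fibronectin 3 (edgeR, adjusted p up to 0.144). In contrast, Racgap1, the partner of Kif23 in centralspindlin, did not pass at -0.02 ± 0.06 (edgeR, adjusted p = 0.855). Ccnb2 and Kif20a were given by library after their values were seen. Kif20a, a kinesin of the same midzone, was at 421, 395 and 405 CPM in suspension 1, 2 and 3, 393, 388 and 443 CPM on fibronectin, 389.8, 381 and 428 CPM on laminin and 399.7, 396 and 432 CPM on uncoated dishes. These groups overlapped, with a change of 0.01 ± 0.05 (edgeR, adjusted p = 0.864).

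Among the cyclins, Cdk1 and its activators, 1 of 7 was lower with all libraries, and 2 of 7 with the block or without batch 3. Of all genes 10.4%, 24.8% and 12.8% were lower in these fits, so the count with the block was near the share of all genes. Ccnb1 (25203), cyclin B1, was at 298, 295 and 287 CPM in suspension 1, 2 and 3, 287, 272 and 275 CPM on fibronectin, 292, 257 and 232 CPM on laminin and 284, 289 and 258 CPM on uncoated dishes. Cdk1 (54237), the mitotic kinase itself, was at 317, 314 and 311 CPM in suspension 1, 2 and 3, 294, 298 and 349.9 CPM on fibronectin, 304, 299 and 324 CPM on laminin and 293, 310.1 and 327 CPM on uncoated dishes. Cyclin B2, Ccnb2 (363088), was at 157, 147 and 139.6 CPM in suspension 1, 2 and 3, 146, 142 and 156 CPM on fibronectin, 155, 139.9 and 141 CPM on laminin and 154, 140.2 and 150.3 CPM on uncoated dishes. In all 3 genes attached and suspension libraries overlapped. Their log2 fold changes were -0.09 ± 0.08, 0.00 ± 0.06 and 0.01 ± 0.06 (edgeR, adjusted p = 0.4, 0.966 and 0.894), and the sign for Cdk1 and Ccnb2 turned without batch 3, to -0.04 ± 0.05 and -0.03 ± 0.07.

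Cdc25b (171103), a phosphatase that activates Cdk1, was at 209.9, 188 and 205 CPM in suspension 1, 2 and 3, 156, 153 and 164 CPM on fibronectin, 158, 154 and 188 CPM on laminin and 150.0, 157 and 185 CPM on uncoated dishes. No attached library reached the lowest suspension library, though laminin 3 came close to it. The change was -0.29 ± 0.07 (edgeR, adjusted p = 0.0128), and leaving out suspension 1 or 3 ended this call (edgeR, adjusted p up to 0.067). Its relative Cdc25c did not pass at 0.09 ± 0.07 (edgeR, adjusted p = 0.37). Cyclin A2, Ccna2 (114494), ranged in attached libraries from 165 to 270.4 CPM, below the 305 to 332 CPM of suspension, and passed with the block at -0.43 ± 0.10 (edgeR, adjusted p = 0.00603; 0.076 without it). Cks2, a small Cdk1 subunit, was at -0.21 ± 0.14 and did not pass (edgeR, adjusted p = 0.256).

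Of the partners and substrates of the anaphase-promoting complex, Ube2c alone was lower among 4, in each of the 3 fits. All genes were lower at 10.4%, 24.8% with the block and 12.8% without batch 3, so 1 of 4 with the block was near that share. Ube2c (296368), the ubiquitin-conjugating enzyme of the complex, was at 137, 138 and 138 CPM in suspension 1, 2 and 3, 105, 105 and 123 CPM on fibronectin, 102, 106 and 114 CPM on laminin and 106, 108 and 129 CPM on uncoated dishes. All attached libraries were below all suspension libraries, and batch 3 was the highest of each attached group. It fell by 0.30 ± 0.06 on the log2 scale (edgeR, adjusted p = 0.0086), and this was the single call of the 7 that held without each of the 12 libraries in turn. Cdc20 (64515), the activator of the complex, was at 278, 255 and 266 CPM in suspension 1, 2 and 3, 243, 237 and 281 CPM on fibronectin, 235, 231 and 281 CPM on laminin and 241, 249.9 and 306 CPM on uncoated dishes. Cdca3, an adaptor for Wee1 destruction, was at 201, 169 and 184 CPM in suspension 1, 2 and 3, 190.1, 187 and 214 CPM on fibronectin, 198, 200.1 and 213 CPM on laminin and 181, 188 and 209 CPM on uncoated dishes. In both the attached libraries overlapped suspension. Cdc20, the securin gene Pttg1 and Cdca3 did not pass, at -0.04 ± 0.08, 0.02 ± 0.07 and 0.12 ± 0.06 (edgeR, adjusted p = 0.704, 0.848 and 0.164).

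Batch 3 was then set apart by taking the log2 ratio of each attached library to the suspension library of its own batch. In batches 1 and 2 the median ratio of a member over 6 libraries ran from -1.08 (Cenpf) to 0.06 (Cdca3). In batch 3, over 3 libraries, it ran from -1.97 (Hmmr) to 0.23 (Pttg1), so the members lay farther apart in this batch. For 15 of 34 members all 3 ratios of batch 3 lay below the other 6, and for 9 they all lay above, where this held for 21.3% and 19.2% of all genes tested. The 9, with ratios nearer or above 0 in batch 3, were Ccnb2, Cdk1, Cdc20, Ube2c, Pttg1, Aurkb, Cdca8, Kif20a and Racgap1.

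**Figure D3:**
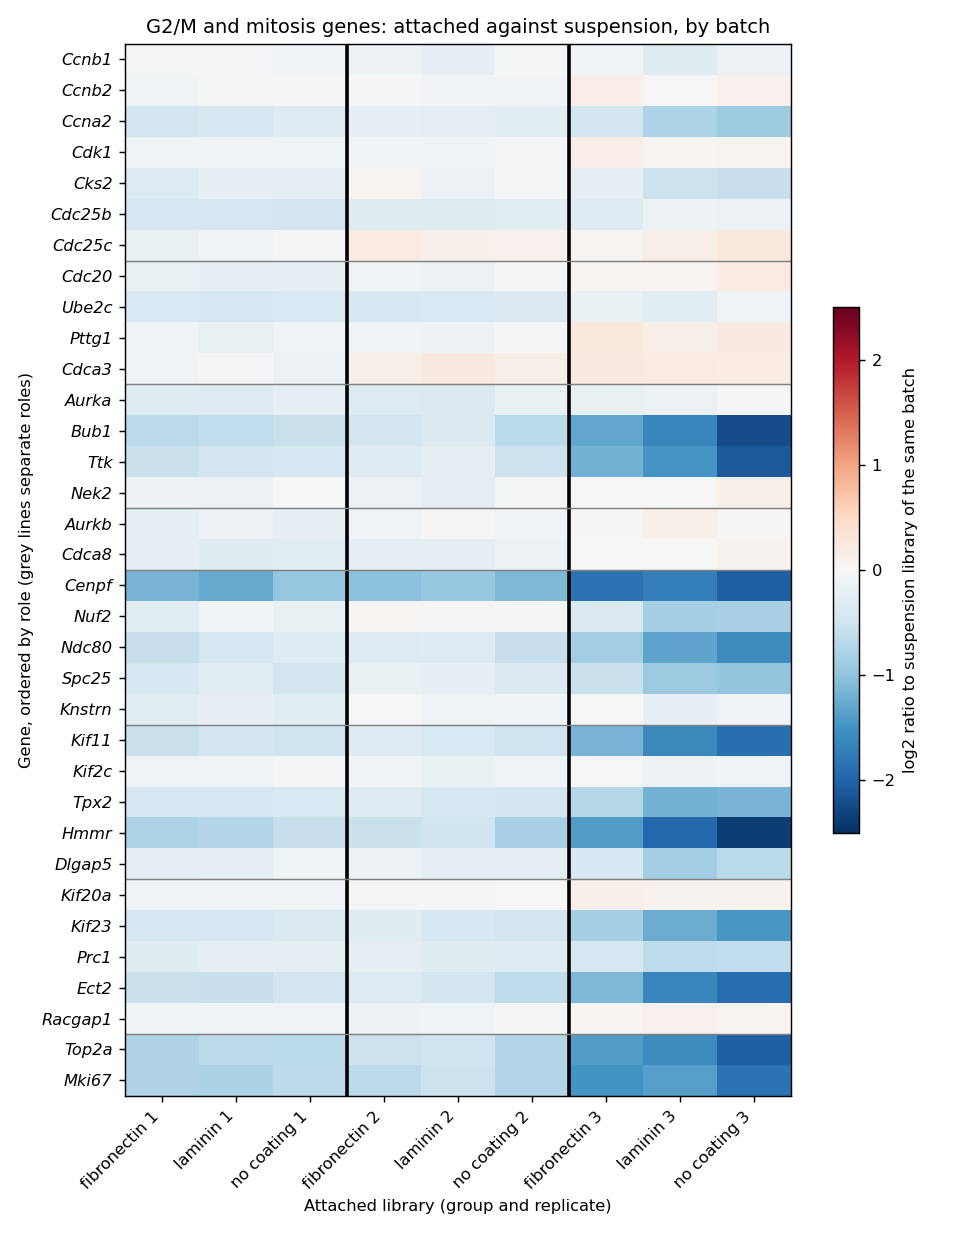
Log2 ratio (colour) of each attached library to the suspension library of the same batch, for the 34 members ordered by role (y axis) and the 9 attached libraries ordered by batch (x axis; black lines separate batches). Blue rows deepen in batch 3 for Bub1, Ttk, Cenpf, Ndc80, Kif11, Hmmr, Ect2, Top2a and Mki67, while rows such as Cdk1 and Kif20a stay pale in every batch.

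Whether the change with plating differed in batch 3 was tested by an interaction term, in a fit with the 4 groups, the 3 batches and attachment in batch 3. The change was more negative in batch 3 for 15 of 34 members and more positive for 0 (edgeR, adjusted p under 0.05), or 44.1% against 15.1% of all genes more negative and 0.878% more positive. By role these were 2 of 4 checkpoint kinases, 4 of 5 kinetochore members, 4 of 5 spindle members, 3 of 5 cytokinesis members and both chromosome members. None of the 7 cyclin and Cdk1 members passed, nor did the 4 partners of the anaphase-promoting complex or the 2 passenger members. The term was largest for Hmmr at -1.27 ± 0.26, Bub1 at -1.19 ± 0.24 and Ttk at -1.18 ± 0.23 (edgeR, adjusted p = 0.00596, 0.00518 and 0.00501). The term rests on suspension 3 as the sole suspension library of its batch. It sets batch 3 against batches 1 and 2, so its p-values are no measure of how the change with plating varies among batches. Batch 3 was singled out because its attached libraries stood apart in these same data. The p-values are thus no independent test that it differs. The share of ribosomal RNA overlapped between attached batch 3 and the other attached libraries, as given above. Laminin 3 and uncoated dish 3 had the fewest genes detected of all attached libraries, at 11412 and 11424. In that number the overlap came from fibronectin 3, at 11539. The part of library quality in the interaction was not tested.

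Of the 15, 13 were also lower on the attached mean without batch 3, so these had a lower level in batches 1 and 2 that was lower still in batch 3. All 13 were lower with the block as well. Nuf2 and Dlgap5 passed the interaction but not the test without batch 3. Ccna2, Cdc25b, Ube2c, Aurka and Cdca8 were lower without batch 3 and did not pass the interaction. The other 14 members passed neither. In those 14 the median ratio ran from -0.18 to 0.06 in batches 1 and 2 and from -0.54 (Cks2) to 0.23 in batch 3. Of the 20 members that passed either test, 17 had a promoter window, 16 of these with a CHR form and 13 with CCAAT. Of the 14 that passed neither, 12 had a window, 10 with a CHR form and 10 with CCAAT, so the elements shown above occurred in members of either course.

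**Figure D4:**
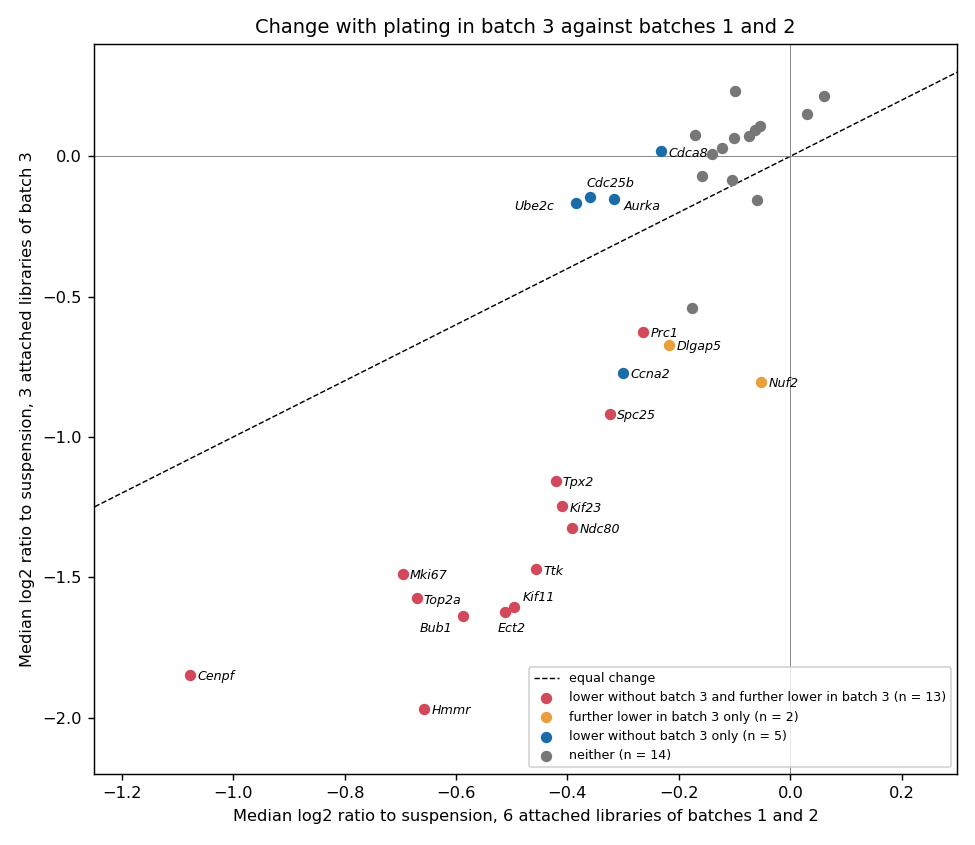
Median log2 ratio to suspension in batch 3 (3 attached libraries, y axis) against batches 1 and 2 (6 attached libraries, x axis), a point per member, coloured by the tests passed; the dashed line marks equal change. The 13 members that passed both tests lie below the line, with Hmmr lowest, and the 14 that passed neither lie nearer to it, Cks2 farthest below.

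The surfaces were compared to ask whether the coating mattered for mitotic genes. Between laminin and fibronectin, fibronectin and no coating, and laminin and no coating, 0 of 34 members passed in either direction by edgeR, by edgeR with the block, without batch 3, or by DESeq2. Members with an unadjusted p under 0.05 by edgeR numbered 0, 0 and 1, the 1 being Nek2, at -0.18 ± 0.07 for laminin against no coating. All genes were called lower and higher at 0.14% and 0.00998% for laminin against fibronectin, 0.00998% and 0.17% for fibronectin against no coating, and 0% for laminin against no coating. With the block these were 0.369% and 0.0399%, 0.0798% and 0.389%, and 0%. Without batch 3 they were 0.119% lower for laminin against fibronectin, 0.11% higher for fibronectin against no coating, and 0% otherwise. Differences between laminin and fibronectin ran from -0.20 (Ect2) to 0.06 (Aurkb), with SEs from 0.06 to 0.47. Without batch 3 they ran from -0.11 to 0.07, with SEs up to 0.12. A difference of that size cannot be told from 0 here, which does not show that the surfaces were alike.

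Within batch 3, for 13 of the 15 members that passed the interaction, fibronectin 3 was the highest of the 3 attached libraries, and for 11 uncoated dish 3 was the lowest. In batch 2 fibronectin was highest for 8 and no coating lowest for 15 of the 15, so the full order of fibronectin, laminin and no coating was seen for 8 in batch 2 and 9 in batch 3. In batch 1 fibronectin was highest for 0 of the 15 and no coating lowest for 1. With 1 library per surface in a batch, this order has no test. The order over all genes is not given, so these counts are not set against a background. The 15 members were picked by their values in batch 3 and share the same libraries. Their number is thus no repeated evidence of an order of surfaces.

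Other genes of the pathway were read from lists that hold none of the members. Of 42 further G2/M and mitosis genes tested, 12 were lower and 0 higher on the attached mean (edgeR, 10.4% of all genes lower), 28 lower with the block (24.8% of all genes) and 24 without batch 3 (12.8%). Their median log2 fold change was -0.25. The count was 5, 5 and 4 without suspension 1, 2 and 3, 19 without uncoated dish 3 and 21 by DESeq2, for which shares over all genes are not given. Troap, a spindle protein, had the smallest p, at -0.51 ± 0.08, followed by Bora, the cofactor through which Aurka activates Plk1, at -0.68 ± 0.11 (edgeR, adjusted p = 0.00142 and 0.00237). Plk1, the main mitotic Polo-like kinase, was at 222, 229 and 224 CPM in suspension 1, 2 and 3, 176, 177 and 200.5 CPM on fibronectin, 168, 176 and 209 CPM on laminin and 175, 185 and 225 CPM on uncoated dishes, a change of -0.24 ± 0.08 (edgeR, adjusted p = 0.037). The interaction with batch 3 was negative for 14 of the 42 and positive for 0, where it was so for 15.1% and 0.878% of all genes.

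Among transcriptional regulators of G2/M genes, calls went in both directions. Of 12 tested, 2 were lower and 3 higher (edgeR, attached mean, with 10.4% of all genes lower and 15.9% higher). Nfya and Nfyb, subunits of the CCAAT-binding factor NF-Y, were lower at -0.43 ± 0.07 and -0.39 ± 0.09 (edgeR, adjusted p = 0.00157 and 0.00879), while the MuvB subunit Lin37 was higher at 0.49 ± 0.10, the third NF-Y subunit Nfyc at 0.24 ± 0.06 and Rbbp4 at 0.22 ± 0.07 (edgeR, adjusted p = 0.00714, 0.0166 and 0.0305). Without batch 3 the count was 3 lower and 1 higher. With library size in place of TMM scaling, or without any 1 suspension library, 1 was higher, and without suspension 3 also 1 was lower. Foxm1, the forkhead factor of G2/M genes, was at 223, 215 and 214 CPM in suspension 1, 2 and 3, 190.5, 195 and 209.9 CPM on fibronectin, 188, 187 and 228 CPM on laminin and 201, 203 and 234 CPM on uncoated dishes, and its change of -0.08 ± 0.06 did not pass (edgeR, adjusted p = 0.387). Mybl2 was at 202, 228 and 226 CPM in suspension 1, 2 and 3, 221, 261 and 271 CPM on fibronectin, 228, 291 and 307 CPM on laminin and 227, 285 and 309.5 CPM on uncoated dishes, a change of 0.30 ± 0.11 that passed with the block (edgeR, adjusted p = 0.000832) and not without it (edgeR, adjusted p = 0.057).

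Of 11 brakes on Cdk1 and mitotic exit genes, 0 were lower and Ensa, a phosphatase inhibitor, was higher at 0.22 ± 0.07 (edgeR, adjusted p = 0.0362). With the block 3 were lower and 1 higher. Over all genes 10.4% were lower and 15.9% higher, and 24.8% and 25.2% with the block, so these counts of 11 were near or below the background. The call of Ensa was not made with library size alone, without batch 3, or without suspension 2 or 3, fibronectin 1 or 3, laminin 1 or uncoated dish 2. Gadd45a, a stress-induced Cdk1 inhibitor, had the next smallest p, at -0.48 ± 0.16 (edgeR, adjusted p = 0.0526). Cdkn1a, the p21 inhibitor of cyclin-dependent kinases, was at 0.22 ± 0.16 (edgeR, adjusted p = 0.312). Of 14 subunits of the anaphase-promoting complex, Anapc11 and Anapc5 were higher, at 0.37 ± 0.08 and 0.26 ± 0.07, and Anapc1 was lower at -0.19 ± 0.05 (edgeR, adjusted p = 0.0104, 0.0257 and 0.0243). With the block 3 were lower and 5 higher. These counts of 14 lay near the shares over all genes, 10.4% lower and 15.9% higher without the block and 24.8% and 25.2% with it. Without suspension 2 or 3 none of the 14 passed, and without suspension 1 the lower call was lost. With library size alone 1 was higher.

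Genes of the G1/S step and DNA replication, which act earlier in the cycle, showed no more calls than all genes did in the fit without the block. Of 32 tested, 5 were higher and 1 lower on the attached mean (edgeR), where 15.9% of all genes were higher and 10.4% lower. With the block 15 were higher, above the share of all genes (25.2%), and 7 lower, near that share (24.8%). Without batch 3, 2 were higher and 3 lower (10.6% and 12.8% of all genes). Their median log2 fold change was 0.13. The 5 higher calls became 1 without any 1 suspension library, 2 without fibronectin 2, fibronectin 3 or laminin 2, 3 without uncoated dish 2, and 2 with library size in place of TMM scaling. The lower call was lost without any 1 suspension library, without uncoated dish 2 and with library size alone. The replication clamp loader Rfc3 and the GINS subunit Gins1 had the smallest p, at 0.35 ± 0.07 and 0.40 ± 0.10 (edgeR, adjusted p = 0.00629 and 0.0152). The lower gene was Rrm2, a ribonucleotide reductase subunit, at -0.20 ± 0.06 (edgeR, adjusted p = 0.0296).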

How the data were processed

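Total RNA libraries (TruSeq Stranded Total RNA LT, per the labels' protocols) gave 1 file of raw read counts per Entrez gene for each of 12 libraries, as the authors deposited them. Per the submitters' processing notes the genome build was rn4. The aligner, counter, annotation and strand setting were not given in the sources used here. Near-identical copies and antisense genes may share reads under that counting. Names came from RefSeq's rat table (GRCr8), which matched 16761 of 16924 identifiers. Library totals were 15875160 to 20852160 counts, which set the counting error of each value.

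Genes were kept by edgeR's filterByExpr on the 4 groups (10020 genes). edgeR 4.0.16 (R 4.3.3, limma 3.58.1) fitted quasi-likelihood models with TMM scaling to a mean per group, with 8 residual degrees of freedom, with two-sided tests and Benjamini-Hochberg adjustment over all genes tested, at a threshold of 0.05. Errors (±) of fold changes are SEs from these fits to 12 libraries. Same-batch ratios used a pseudocount of 0.5 counts. The labels mark the replicate number as a shared batch. Deviations from group means correlated at a median of 0.409 over 18 same-batch pairs of libraries and -0.124 over 36 other pairs. Fits with the batch as a block are therefore printed where they change a call or count. Of the 18 pairs, the 9 among attached libraries had a median of 0.675, and the 9 of suspension with attached 0.197. A block gives the 4 groups of a batch a shared shift and does not take up what attached libraries alone share. P-values with the block may thus be too small. Fits without the block, with or without batch 3, take the attached libraries of a batch as independent. Their p-values for the attached mean may therefore be too small as well. The scripts were tested on simulated data. Alternatives were the block, DESeq2 1.42.0, library size scaling, a filter of 10 counts only, no batch 3, fits to 2 groups and each library left out, and, chosen after seeing the data, the block with batches 1 and 2 only. The members, roles, gene lists and the setting apart of batch 3 were chosen with earlier results of these data known. Per-library values were set to be given for the 2 members of each role with the highest mean CPM and every member that passed without the block or in the interaction. Of each other pathway list, counts of calls were set to be given, with fold changes for the 2 genes with the smallest p and for Plk1, Foxm1, Mybl2 and Cdkn1a. Other genes named were chosen after their values were seen. No library pair was identical (0 pairs).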

Additional observations from a re-analysis of the deposited data

Results flagged for a closer look

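The change from suspension to attached cells differed between batch 3 and batches 1 and 2 for 15 of the 34 members, by the interaction term in edgeR's quasi-likelihood test with Benjamini-Hochberg adjustment. Of all genes tested, 15.1% were more negative in batch 3 and 0.878% more positive, so a shift in batch 3 was not confined to the members. The differences, as log2 values with batch 3 minus batches 1 and 2, were -1.27 for Hmmr, -1.19 for Bub1, -1.18 for Ttk, -1.12 for Kif11 and -1.08 for Ect2. Next in size they were -1.06 for Top2a, -0.921 for Mki67, -0.849 for Ndc80, -0.83 for Cenpf and -0.82 for Kif23. The smallest were -0.646 for Tpx2, -0.618 for Nuf2, -0.544 for Spc25, -0.488 for Dlgap5 and -0.337 for Prc1. Adjusted p in edgeR ran from 0.00195 to 0.045. For each of these genes the 3 ratios of batch 3 lay below all 6 of the other batches, as for 21.3% of all genes tested. These ratios come from the same counts as the interaction term, so they are no separate support. Batch 3 was itself set apart after these data were seen. The test rests on 1 suspension library of batch 3. For Hmmr that library was at 114 CPM, near the 119.5 and 121 CPM of suspension 1 and 2, while attached libraries were at 21.9 to 43.2 CPM in batch 3 and 69.1 to 86.0 CPM in batches 1 and 2. For Cenpf suspension 3 was itself lower, at 279.9 CPM against 388 and 423 CPM. Leaving out a single library ended the call of Prc1 for 8 libraries, of Nuf2 for 7, of Dlgap5 for 6, of Ndc80 for suspension 1, suspension 2 and laminin 3, and of Spc25 for suspension 2. The other 10 calls held without each library for which the term could be fitted, and without suspension 3 it could not.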

How the results depend on the processing

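On the attached mean, the 7 members called lower became 18 with the replicate block, 12 with DESeq2, 18 without batch 3 and 20 with the block in batches 1 and 2 only, and ran from 1 to 9 when 1 library was left out. Of all genes, 10.4% were lower as reported, 24.8% with the block and 12.8% without batch 3. Shares over all genes are not given for DESeq2, the block in batches 1 and 2 only, fits to 2 groups or single libraries left out. Nor are they given for no filter beyond 10 counts or for the interaction with no replicate block. Those counts are thus not set against all genes. On fibronectin the 1 call became 9, 4, 14 and 18 in the same order, 0 with library size only, 0 with no filter beyond 10 counts and 11 in a fit to the 2 groups only, and 0 to 0 with 1 library left out. On laminin the 3 calls became 19 with the block, 6 with DESeq2, 16 without batch 3, 21 with the block in batches 1 and 2 only and 1 with library size only, and ran from 0 to 3. On uncoated dishes the 0 calls became 16, 5, 14 and 16 in the first order, and ran from 0 to 2. The 15 calls of the interaction were 16 with DESeq2, 14 with library size only, 14 with no filter beyond 10 counts and 11 with no replicate block, and ran from 11 to 17. The 0 calls between surfaces stayed 0 in each alternative run. For Cdk1, at 0.00361 on the attached mean, the sign turned with DESeq2 (-0.0116), library size only (-0.014), no filter (-0.00068), no batch 3 (-0.0435), the block in batches 1 and 2 only (-0.0435), and without suspension 1 (-0.00421), suspension 3 (-0.00425), fibronectin 3 (-0.0216, the lowest with 1 library left out, where the highest was 0.0192), laminin 3 (-0.00338) or uncoated dish 3 (-0.00304), all within 1 SE of 0. The fits without batch 3 hold fewer samples and a smaller estimated spread, with a biological coefficient of variation of 0.0911 against 0.152, and 0.100 with the block. The cause of the other changes was not tested. Library size scaling moved the median of all genes by at most 0.045 on the log2 scale. Its split over all genes was 329 lower and 384 higher on fibronectin (307 and 662 with TMM). On laminin it was 661 and 802 (697 and 1208 with TMM), and for the interaction 1380 and 197 (1517 and 88 with TMM).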

Other observations

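Markers of other cell types were tested on the attached mean in the same edgeR fit. Of 2 cardiomyocyte markers that passed the filter, Tnnt2 was higher at 1.52 ± 0.16 (edgeR, adjusted p = 0.00011) and Tnni3 did not pass. The 1 endothelial marker tested, Vwf, was higher at 1.50 ± 0.28 (edgeR, adjusted p = 0.00397), with 0.725 CPM in suspension 1. Of 3 blood cell markers tested, Cd14 and Laptm5 were higher, at 0.65 ± 0.06 and 0.85 ± 0.18 (edgeR, adjusted p = 5.78e-05 and 0.00792). Of 4 mesenchymal markers tested, Vim and Pdgfra were higher, at 0.23 ± 0.05 and 0.50 ± 0.16 (edgeR, adjusted p = 0.00879 and 0.0411). Of 2 smooth muscle markers, Myh11 was lower at -0.46 ± 0.14 (edgeR, adjusted p = 0.0336) and Tagln did not pass. Of the 2 progenitor markers and 3 ribosomal RNA genes tested, 0 passed in edgeR or DESeq2.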
